A study of Mus musculus with 24 samples.

Results

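The genes of hepatic de novo lipogenesis were followed across the fasted livers of 6 mouse genotypes. The set comprises 10 genes, chosen by symbol from the 35275 rows of the read count table: Acaca, Acacb, Fasn, Acly, Me1, Pnpla3, Thrsp, Gpam and the transcription factor genes Srebf1 and Mlxipl. All 10 symbols were found. RNA-seq covered 24 libraries, 4 from each genotype, made from the livers of male C57BL/6 mice 8 to 10 weeks old that had fasted for 24 h. The groups were control mice (called wild type in the labels), Tsc1L-/-, Cpt2L-/-, the double knockout of both (DKO), Ppara knockout (PparaKO) and Cpt2L-/-PparaKO. The liver deletions use Cre driven by the albumin promoter, which acts in hepatocytes. Whether other cells of the liver keep intact alleles was not tested. The study describes its control mice as carrying floxed alleles. How Ppara was deleted, and in which cells, is not given in the sources used here. Single animals are implied by the labels but not stated, so the p-values measure the spread between these libraries.

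De novo lipogenesis turns the carbon of sugars and amino acids into fatty acids. Citrate leaves the mitochondrion and is split to acetyl-CoA by ATP citrate lyase (Acly), acetyl-CoA carboxylases make malonyl-CoA, and fatty acid synthase (Fasn) extends it to palmitate with NADPH, part of which comes from malic enzyme (Me1). The carboxylase encoded by Acaca is cytosolic and feeds synthesis. The product of Acacb sits at the outer mitochondrial membrane, where its malonyl-CoA inhibits Cpt1 and so the entry of fatty acids into beta oxidation. Thrsp encodes Spot 14, a small lipogenic protein, Gpam the mitochondrial enzyme that acylates glycerol 3-phosphate at the start of triglyceride synthesis, and Pnpla3 a lipid droplet protein. In the liver the pathway is known to be low in fasting and high after feeding, when insulin acts through SREBP-1c (Srebf1) and glucose through ChREBP (Mlxipl). Tsc1 restrains mTORC1, which favors SREBP-1c, Cpt2 releases long-chain acyl-CoA inside the mitochondrion, without which these fatty acids cannot be oxidized there, and Ppara is the fatty acid receptor that drives the fasting program.

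All 10 genes are protein coding, and their positions below are those of the deposited table, on GRCm38. Acaca lies on chromosome 11 from 84129672 to 84401651 on the plus strand, and Acacb on chromosome 5 from 114146535 to 114250761 on the plus strand. Fasn lies on chromosome 11 from 120805940 to 120824178, Acly on chromosome 11 from 100476353 to 100528000 and Srebf1 on chromosome 11 from 60199089 to 60222581, all on the minus strand. Me1 is on chromosome 9 from 86581371 to 86695953 and Thrsp on chromosome 7 from 97412938 to 97417730, both on the minus strand. Pnpla3 is on chromosome 15 from 84167816 to 84189512 and Mlxipl on chromosome 5 from 135106891 to 135138382, both on the plus strand, and Gpam is on chromosome 19 from 55069734 to 55099451 on the minus strand. No member overlaps a gene on its own strand in the table. Acaca, Acacb, Me1 and Srebf1 each overlap 1 gene on the other strand. The library kit keeps the strand, but the strand setting of the counting is not given in the sources used here.

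Promoter windows were read from RefSeq (GRCm38.p6), which had 15 windows for the 10 genes, and the 250 bases before each start are used here. Fasn and Pnpla3 are shown because both transcripts were highest of their group in PparaKO replicates 2 and 3 (in Tsc1L-/- replicate 3 Fasn alone was high), and Mlxipl because its window alone among the 15 held the E-box CACGTG, the core of the element that ChREBP is known to bind. Capitals mark CCAAT (or ATTGG, its reverse), GGGCGG (or its reverse) and CACGTG, searched on both strands. The windows are Fasn at chr11:120824548-120824797 (minus strand), Pnpla3 at chr15:84167566-84167815 (plus strand) and Mlxipl at chr5:135089640-135089889 (plus strand), each written 5′ to 3′.
Fasn: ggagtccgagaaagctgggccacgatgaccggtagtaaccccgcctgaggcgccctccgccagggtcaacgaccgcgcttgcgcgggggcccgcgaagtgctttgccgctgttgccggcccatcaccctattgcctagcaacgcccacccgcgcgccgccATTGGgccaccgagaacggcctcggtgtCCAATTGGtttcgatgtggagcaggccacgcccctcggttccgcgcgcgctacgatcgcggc
Pnpla3: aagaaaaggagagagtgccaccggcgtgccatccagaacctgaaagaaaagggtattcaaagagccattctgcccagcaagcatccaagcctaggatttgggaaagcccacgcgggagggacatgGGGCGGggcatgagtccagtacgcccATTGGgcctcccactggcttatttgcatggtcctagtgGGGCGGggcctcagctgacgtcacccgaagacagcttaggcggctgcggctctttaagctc
Mlxipl: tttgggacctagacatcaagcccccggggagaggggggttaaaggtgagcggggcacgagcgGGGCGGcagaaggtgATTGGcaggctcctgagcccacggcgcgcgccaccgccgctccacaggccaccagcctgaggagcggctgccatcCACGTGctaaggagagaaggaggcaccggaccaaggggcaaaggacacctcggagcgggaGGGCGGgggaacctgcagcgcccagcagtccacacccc
The Fasn window held CCAAT at 3 places, of which 2 overlap head to head in CCAATTGG. Thrsp held CCAAT at 2 places, and 9 of the 15 windows, from 8 genes, held it at least once. Of all 32851 promoter windows of this length, 33.8% held CCAAT, 32.7% held GGGCGG and 6.02% held CACGTG. A match is a description of letters, and no match says only that these letters are absent from this window. The windows of Acaca and Acacb start inside their gene models, and that of Thrsp overlaps an exon of GENCODE M21, so these are not printed. The Mlxipl window shown lies upstream of the start of the gene in the deposited table (135106891), and the other RefSeq window of Mlxipl, from 135106641 to 135106890, adjoins that start and holds no CACGTG.

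Total counts ranged from 14470968 to 20371204 per library. Tsc1 fell in the livers without it (log2 fold change against control −0.65 ± 0.13 (SE) in Tsc1L-/- and −1.21 ± 0.13 in DKO, edgeR adjusted p = 0.00491 and 2.11e-06). Ppara fell by 3.23 ± 0.41 (log2) in PparaKO against control and by 2.65 ± 0.34 in Cpt2L-/-PparaKO against Cpt2L-/- (edgeR adjusted p = 0.000586 and 0.00173). The whole-gene count of Cpt2 was not called in Cpt2L-/- (−0.11 ± 0.14, adjusted p = 0.605 by edgeR) and was at 92.3 ± 10.1 CPM (SD, n = 4) there and 97.6 ± 6.84 in control livers. That count does not isolate the deleted exon, so it does not check the label. Hepatocyte markers (8 genes) summed to 81522 to 97913 CPM (counts scaled to library size after TMM) in control livers and lower in Tsc1L-/- (49403 to 74442), Cpt2L-/- (44662 to 73128) and DKO livers (37747 to 44582), none of which overlapped control. They summed to 66837 to 84364 in PparaKO and 48877 to 66730 in Cpt2L-/-PparaKO livers. Alb carried much of this sum, at 39765 to 48092 CPM in control and 10947 to 14994 in DKO livers, and the markers did not move as one. In Tsc1L-/- livers Ttr was at 3372 to 4790 CPM (control 2508 to 3684) and Serpina1c at 475 to 815 (control 390 to 737). Markers of other cells also separated some groups. Stellate cell and fibroblast markers summed to 248 to 329 CPM in control livers and less, without overlap, in Tsc1L-/- (160 to 239), DKO (154 to 193) and Cpt2L-/-PparaKO livers (172 to 223, also below every PparaKO library). Endothelial and cholangiocyte markers summed to less in Cpt2L-/-PparaKO livers (133 to 229 CPM for the first) than in PparaKO livers (247 to 285 and 25.0 to 47.9), and to less in DKO (158 to 266 and 20.3 to 27.0) than in Tsc1L-/- livers (275 to 328 and 31.4 to 35.1). Lymphocyte markers were at most 8.62 CPM in sum in every library, and were lower than control (2.16 to 8.62) in Tsc1L-/- (1.39 to 1.97), DKO (1.12 to 2.11) and PparaKO livers (0.961 to 1.51), and higher in Cpt2L-/-PparaKO (1.88 to 3.12) than in PparaKO livers. The adipocyte marker sum was lower in Cpt2L-/-PparaKO (1.11 to 2.24) than in Cpt2L-/- (3.25 to 20.5) and PparaKO livers (3.74 to 10.5). In DKO livers it was 2.61 to 3.15, above Tsc1L-/- (1.25 to 2.54) and below Cpt2L-/- livers. Nnat carried nearly all of it in PparaKO (3.70 to 10.3 CPM) and Cpt2L-/-PparaKO livers (1.11 to 2.10). Adipoq had at most 4 counts in those livers, so this sum shows no difference in adipocytes between them. Macrophage and erythroid markers overlapped between the groups of each comparison. The part of all these markers in the results below was not tested, and in bulk tissue fewer cells of a type and less RNA per cell cannot be told apart. The 7 adipocyte markers summed to at most 10.5 CPM except in Cpt2L-/- replicate 2 (20.5 CPM, with Cfd at 194, Adipoq at 41 and Plin1 at 30 counts), and the calls in Cpt2L-/- against control held without that library.

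Single libraries stood apart within their groups, and they decide several of the results below. In Tsc1L-/- replicate 3, Thrsp was at 553 CPM against 7.44 to 14.8 in the other libraries, Srebf1 at 331 against 23.4 to 40.9 and Fasn at 259 against 41.9 to 75.8. In the same library the Ppara target Cyp4a14 was at 513 CPM against 4209 to 5809. In PparaKO replicates 2 and 3, Fasn was at 1212 and 557 CPM against 83.0 and 192 in the others, and Thrsp at 632 and 172 against 15.6 and 25.1. In Cpt2L-/-PparaKO replicate 1, Cyp4a14 was at 3251 CPM against 185 to 294, Ppara at 91.9 against 26.2 to 46.2, Cpt2 at 126 against 31.7 to 39.1 and Tsc1 at 24.3 against 42.4 to 50.6. Within its group this library had the lowest values of Acaca, Acacb, Fasn, Acly, Srebf1 and Thrsp. The labels give every liver as fasted, a state in which this pathway is known to be low, and whether the genotype and fasting state of these 4 libraries are as labelled was not tested. Beside these, Cd1d2 was at 11.2 to 60.7 CPM in all control, Tsc1L-/- and DKO libraries and at 0.0696 to 0.828 CPM in all Cpt2L-/-, PparaKO and Cpt2L-/-PparaKO libraries. Where a group of the first kind is compared with one of the second, genotype and any difference of colony that this gene follows cannot be told apart. The same limit holds for both interactions. Control alone is high on this gene among the Cpt2 and Ppara groups, and Cpt2L-/- alone is low among the Tsc1 and Cpt2 groups. Cd1d2 itself had interactions of 5.40 ± 0.98 and 6.34 ± 0.82 there (log2, edgeR adjusted p = 0.00148 and 0.00160). Cyp4a14 and Cd1d2 were chosen after their values were seen.

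Levels per length were compared first, as FPKM (fragments per kilobase of gene, scaled to library size). In control livers Mlxipl (36.4 ± 22.7 FPKM, SD, n = 4), Me1 (35.4 ± 9.91) and Gpam (34.5 ± 3.78) led the order, with neighbors that overlapped, followed by Acly (28.1 ± 3.08). Thrsp, Srebf1, Fasn, Acacb and Acaca formed a lower tier from 10.5 ± 1.54 down to 4.88 ± 0.57 FPKM, again with overlapping neighbors. Pnpla3, at 0.076 ± 0.032 FPKM, lay far below every other member. In Cpt2L-/- livers the order was Gpam (66.4 ± 9.71 FPKM), Me1 (51.2 ± 4.19) and then Acacb (30.9 ± 4.79), with no overlap between these neighbors, and Thrsp (3.49 ± 0.17) had dropped below Acaca. Acacb thus moved from the eighth place in control livers to the third in Cpt2L-/- and DKO livers. In PparaKO livers Thrsp (147 ± 196 FPKM) and Fasn (48.1 ± 45.5) came first on average, but each had an SD about as large as its mean.

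**Figure D1:**
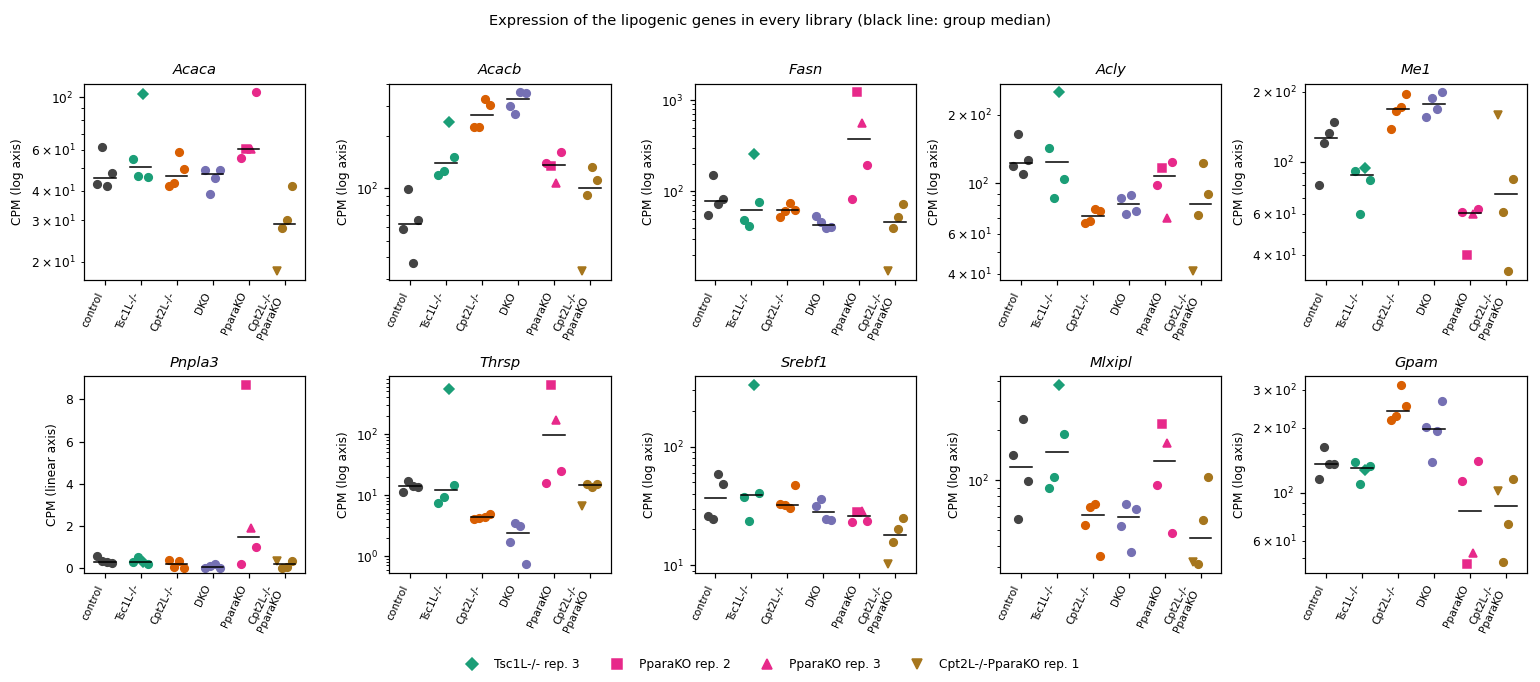
CPM of the 10 genes in each of the 24 libraries, on log axes except for Pnpla3, with the group median as a black line and 4 libraries that stood apart drawn with their own symbols. Acacb rises from control through Tsc1L-/- to Cpt2L-/- and DKO, while the highest Thrsp and Fasn values belong to single libraries (632 and 1212 CPM in PparaKO replicate 2).

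The comparison of Tsc1L-/- with control livers asks what sustained mTORC1 activity does to these genes in the fasted state. Acacb rose and was the only one of the 9 tested members past the threshold, while 6.64% of all genes were called. Acacb was at 58.0, 98.6, 37.1 and 66.0 CPM in control replicates 1 to 4 and at 119, 126, 243 and 152 CPM in Tsc1L-/- replicates 1 to 4. Every Tsc1L-/- library was above every control library, and 12.2% of all genes had groups that did not overlap, in either direction. The log2 fold change was 1.30 ± 0.27 (SE, 2.46-fold, edgeR adjusted p = 0.00766), and it was 1.03 to 1.58 with each library left out in turn (adjusted p at most 0.0243). In a fit of these 2 groups alone the same rise had an adjusted p of 0.0676.

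Thrsp and Srebf1, the target and the transcription factor that mTORC1 is known to raise, had large mean differences that did not pass the test. Thrsp was at 11.1, 16.9, 14.3 and 13.5 CPM in control livers and 7.44, 9.36, 553 and 14.8 in Tsc1L-/- livers (log2 difference 3.39 ± 1.20, SE, with an edgeR adjusted p of 0.118). Srebf1 was at 25.9, 24.7, 59.2 and 48.6 CPM in control livers and 37.7, 23.4, 331 and 40.9 in Tsc1L-/- livers (log2 difference 1.45 ± 0.70, with an edgeR adjusted p of 0.259). Outside replicate 3 both genes lay within or below the control range. Without replicate 3 the log2 fold changes were −0.40 for Thrsp, −0.22 for Srebf1, −0.71 for Fasn and −0.23 for Acly, each with the sign turned, and Mlxipl went from 0.51 to −0.063. Acaca went from 0.36 ± 0.22 to 0.0078. Replicate 3 held the highest Tsc1L-/- value of 8 members, Gpam and Pnpla3 excepted. Me1, the NADPH-forming malic enzyme, was at 79.5, 121, 133 and 148 CPM in control livers and 91.7, 60.1, 94.0 and 83.8 in Tsc1L-/- livers. Its log2 fold change was −0.55 ± 0.17 (edgeR adjusted p = 0.0636), and Gpam stood at −0.12 ± 0.17. Me1 was called without control replicate 1 (−0.69, edgeR adjusted p = 0.0128) and with DESeq2 (adjusted p = 0.0353).

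The comparison of Cpt2L-/- with control asks how the genes stand when long-chain fatty acids cannot be oxidized. Acacb and Gpam rose and Acly fell, which is 3 of 9 members against 31.0% of all genes. Acacb was at 227, 227, 327 and 301 CPM in Cpt2L-/- livers, each above the highest control value of 98.6 (log2 fold change 2.03 ± 0.27, 4.09-fold, edgeR adjusted p = 4.20e-05). Gpam was at 116, 163, 136 and 135 CPM in control livers and 218, 227, 314 and 253 in Cpt2L-/- livers (0.85 ± 0.17, 1.80-fold, edgeR adjusted p = 0.000936). Both genes had no overlap between the groups, as had 30.9% of all genes. Acly was at 119, 165, 110 and 127 CPM in control livers and 66.7, 68.3, 77.3 and 75.2 in Cpt2L-/- livers (−0.89 ± 0.24, 1.85-fold lower, edgeR adjusted p = 0.0110), again without overlap. All 3 calls held with each library left out. The genes for the cytosolic malonyl-CoA and palmitate steps, Acaca (−0.035 ± 0.22, adjusted p = 0.924 by edgeR) and Fasn (−0.56 ± 0.50, adjusted p = 0.426), did not pass.

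Thrsp was at 4.11 to 4.89 CPM in the Cpt2L-/- livers, below every control value, yet its log2 fold change of −1.68 ± 1.22 did not pass (edgeR adjusted p = 0.326). The spread in that fit is shared by 16 libraries, Tsc1L-/- replicate 3 among them. In a fit of the control and Cpt2L-/- libraries alone, with the same test, the log2 fold change was −1.70 and the adjusted p 1.94e-05. Mlxipl was at 142, 58.6, 235 and 99.1 CPM in control livers and 53.8, 69.0, 71.7 and 35.0 in Cpt2L-/- livers (−1.24 ± 0.49, edgeR adjusted p = 0.0698). Control replicate 2 overlapped the Cpt2L-/- range, and without it Mlxipl was called (edgeR adjusted p = 0.0371), as it was with DESeq2 (adjusted p = 0.0435). With another library left out Mlxipl shrank to as little as −0.80 (edgeR adjusted p up to 0.245). Me1 (0.45 ± 0.17, edgeR adjusted p = 0.0518) lay just outside the threshold, and Srebf1 (−0.19 ± 0.69) far from it. Me1 was called without control replicate 3, control replicate 4 or Cpt2L-/- replicate 1 (edgeR adjusted p = 0.0441, 0.0199 and 0.0382) and with the replicate block (0.0343).

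In DKO livers Acacb, Me1 and Gpam rose and Acly fell against control, 4 of 9 members against 36.4% of all genes. Acacb was at 300, 268, 357 and 357 CPM (log2 fold change 2.29 ± 0.27, 4.91-fold, edgeR adjusted p = 1.09e-05), all above the controls (37.4% of all genes had no overlap here). Me1 was at 157, 188, 168 and 198 CPM (0.55 ± 0.17, edgeR adjusted p = 0.0170), also without overlap. Gpam was at 202, 138, 193 and 265 CPM (0.52 ± 0.17, edgeR adjusted p = 0.0211), and replicate 2 lay within the control range. Acly was at 86.2, 72.8, 88.9 and 75.2 CPM (−0.70 ± 0.24, edgeR adjusted p = 0.0334). The calls of Acly and Gpam depended on single libraries. Acly had an adjusted p of 0.101, 0.0531, 0.0515, 0.0847 and 0.0769 without control replicate 2, control replicate 4 and DKO replicates 1, 2 and 4 in turn, and Gpam 0.0613 and 0.0987 without control replicate 1 and DKO replicate 4. Mlxipl, at 53.1, 71.7, 36.6 and 66.6 CPM, overlapped control and was not called (−1.24 ± 0.49, edgeR adjusted p = 0.0636), but was without control replicate 2 (edgeR adjusted p = 0.0311) and with DESeq2 (adjusted p = 0.0383). With another library left out Mlxipl shrank to as little as −0.82 (edgeR adjusted p up to 0.218). In the fit of all 24 libraries 1 of the members, Acacb, was called.

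Thrsp was lowest in DKO livers, at 1.71, 3.47, 3.06 and 0.749 CPM, each below the Cpt2L-/- and control ranges (23.0% of all genes had no overlap between DKO and Cpt2L-/-), and Fasn at 53.7, 45.5, 39.4 and 40.6 CPM was below every control value. Neither passed against control in the fit of 16 libraries (Thrsp −2.65 ± 1.30, adjusted p = 0.132, and Fasn −1.02 ± 0.50, adjusted p = 0.128, both by edgeR). In a fit of the DKO and control libraries alone both did, with adjusted p-values of 0.000339 for Thrsp (−2.66) and 0.0230 for Fasn (−1.04). Against Cpt2L-/- livers, the comparison that shows what Tsc1 loss adds to Cpt2 loss, none of the 9 members was called by edgeR and none had an unadjusted p under 0.05, while 18.3% of all genes were called. DESeq2 also called 0. The largest log2 differences were −0.96 ± 1.35 for Thrsp and −0.46 ± 0.50 for Fasn, and Acacb stood at 0.26 ± 0.26. Gpam (−0.33 ± 0.17) had an edgeR adjusted p of 0.186, and of 0.0465 without DKO replicate 4, and Fasn had 0.0244 in a fit of these 2 groups alone.

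Against Tsc1L-/- livers, which shows what Cpt2 loss adds to Tsc1 loss, 6 of 9 members were called in DKO livers, against 32.2% of all genes. Acacb (log2 fold change 0.99 ± 0.26), Me1 (1.10 ± 0.17) and Gpam (0.64 ± 0.17) rose, with edgeR adjusted p-values of 0.00850, 0.000109 and 0.00714. Thrsp (−6.04 ± 1.41), Mlxipl (−1.74 ± 0.50) and Acly (−0.86 ± 0.24) fell, with edgeR adjusted p-values of 0.00566, 0.0161 and 0.0122. Acacb, Me1, Thrsp and Mlxipl had no overlap between the groups, as had 30.5% of all genes. Without Tsc1L-/- replicate 3 the fall of Thrsp was −2.24 (edgeR adjusted p = 0.000153), that of Acly −0.47 (adjusted p = 0.0356) and that of Mlxipl −1.17 (adjusted p = 0.0623). Fasn (−1.25 ± 0.50, edgeR adjusted p = 0.0747) and Srebf1 (−1.91 ± 0.71, edgeR adjusted p = 0.0563) were not called. Fasn was called without Tsc1L-/- replicate 1 or 2 (edgeR adjusted p = 0.0391 and 0.0313), and Srebf1 without Tsc1L-/- replicate 1, 2 or 4 (0.0360, 0.0231 and 0.0407). With another library left out they shrank to as little as −0.31 for Fasn and −0.24 for Srebf1 (edgeR adjusted p up to 0.462 and 0.597). The interaction of Tsc1 and Cpt2 loss called 2.38% of all genes and 0 of 9 members by edgeR, of which 3 had an unadjusted p under 0.05 (Acacb −1.04 ± 0.37, Me1 0.65 ± 0.24 and Thrsp −4.36 ± 1.77). DESeq2 called 0 too. With each library left out in turn, the Thrsp interaction shrank to as little as −0.56.

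**Figure D2:**
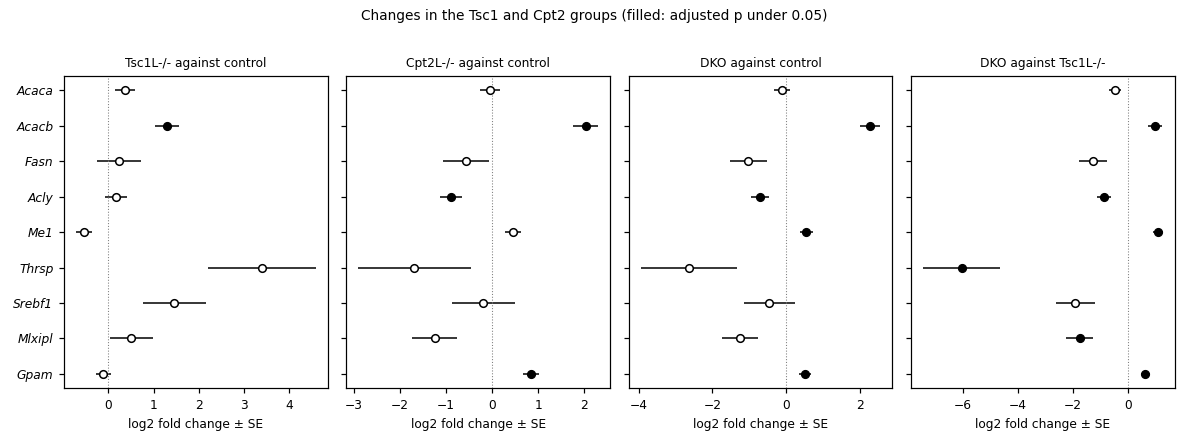
Log2 fold changes with SE (n = 4 per group) of the 9 tested members in 4 comparisons of control, Tsc1L-/-, Cpt2L-/- and DKO livers, with filled points where the edgeR adjusted p is under 0.05. Acacb is filled in all 4 panels, at 1.30, 2.03, 2.29 and 0.99, and Thrsp has the widest bars.

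The balance of the carboxylase transcripts was followed as the ratio of Acacb to Acaca FPKM, which does not depend on library scaling. The ratio was chosen after the values were seen and is given as a description. It was 1.41 ± 0.33 (SD, n = 4) in control livers, 2.86 ± 0.55 in Tsc1L-/-, 6.04 ± 0.38 in Cpt2L-/- and 7.62 ± 0.80 in DKO livers. It was 2.20 ± 0.48 in PparaKO and 3.30 ± 1.19 in Cpt2L-/-PparaKO livers. The ranges of control (0.953 to 1.73), Tsc1L-/- (2.36 to 3.60), Cpt2L-/- (5.70 to 6.58) and DKO (6.60 to 8.50) did not overlap. In Tsc1L-/- replicate 3, where both transcripts were high, the ratio lay inside the range of its group.

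**Figure D3:**
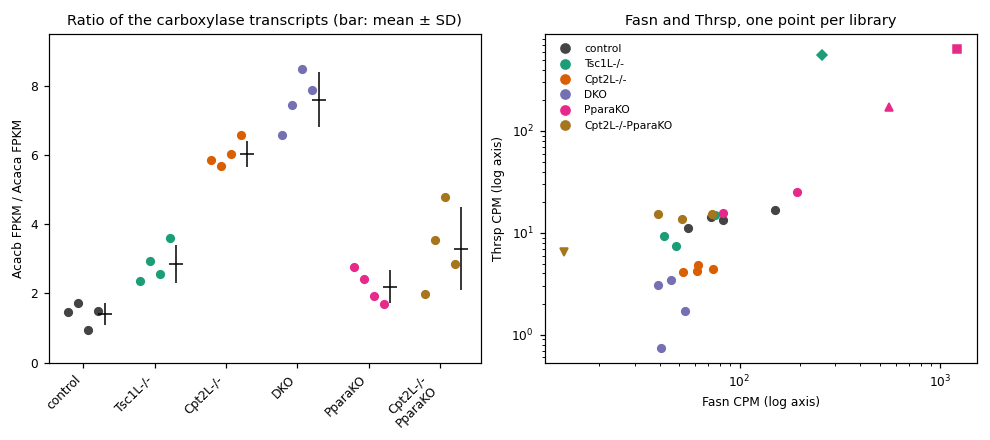
Left, the ratio of Acacb to Acaca FPKM in each library with the mean and SD beside each group. Right, Thrsp against Fasn CPM on log axes, a point per library, with the diamond for Tsc1L-/- replicate 3, the square and triangle for PparaKO replicates 2 and 3 and the inverted triangle for Cpt2L-/-PparaKO replicate 1. The ratio is highest in Cpt2L-/- and DKO livers, and 3 libraries lie far to the upper right on Thrsp and Fasn.

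The comparison of PparaKO with control livers shows the genes without the fasting receptor. Acacb, Fasn and Thrsp rose and Me1 fell, 4 of 9 members against 27.5% of all genes. Acacb was at 140, 134, 108 and 163 CPM in PparaKO livers, above every control value, in a comparison where 30.7% of all genes had no overlap (log2 fold change 1.07 ± 0.26, 2.10-fold, edgeR adjusted p = 0.0146). Me1 was at 61.3, 39.8, 60.0 and 62.9 CPM, below every control value (−1.11 ± 0.21, 2.16-fold lower, edgeR adjusted p = 0.00451). These calls held with each library left out. Me1 is known as a Ppara target.

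The rises of Fasn and Thrsp rested on replicates 2 and 3. Fasn was at 55.5, 151, 72.3 and 83.0 CPM in control livers and 83.0, 1212, 557 and 192 in PparaKO livers (log2 fold change 2.52 ± 0.73, edgeR adjusted p = 0.0306). Thrsp was at 15.6, 632, 172 and 25.1 CPM in PparaKO livers (3.95 ± 1.05, edgeR adjusted p = 0.0214). For both genes PparaKO replicate 1 overlapped the control range. With replicates 2 and 3 both left out, an alternative added after the values were seen, the log2 fold changes were 0.60 for Fasn (edgeR adjusted p = 0.404) and 0.53 for Thrsp (adjusted p = 0.139). Without replicate 2 alone they were 1.61 and 2.33 (edgeR adjusted p = 0.0926 and 0.0705), and without replicate 3 alone 2.5 and 4.05 (0.0632 and 0.0504). Both calls were also lost without control replicate 1 (adjusted p = 0.0712 for Fasn and 0.0514 for Thrsp) and without control replicate 4 (0.0680 and 0.0503), and that of Fasn without control replicate 3 (0.0703).

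The PparaKO libraries with high Fasn and Thrsp differed from Tsc1L-/- replicate 3 in the other members. Srebf1 was at 23.1, 28.0, 28.8 and 23.8 CPM in PparaKO replicates 1 to 4, within or just below the control range of 24.7 to 59.2, against 331 in Tsc1L-/- replicate 3. Gpam was at 113, 47.1, 52.5 and 140 CPM, so that replicates 2 and 3 were the low ones, and it was called against control without replicate 4 (edgeR adjusted p = 0.0334). Mlxipl was at 93.7, 220, 167 and 47.7 CPM, with replicates 2 and 3 the high ones. Acaca was at 55.0, 60.0, 60.2 and 105 CPM, and here replicate 4 was the high one. Ppara itself was at 13.0 CPM in both of these libraries and at 45.2 and 38.1 in replicates 1 and 4. Its part in the differences between the libraries was not tested.

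Pnpla3 did not pass the filter on low counts, with 0 to 10 counts in every library outside PparaKO. In PparaKO replicates 1 to 4 it had 5, 115, 28 and 15 counts, which is 0.228, 8.66, 1.92 and 1.03 CPM. Replicate 2 was again the highest, as for Fasn and Thrsp. In Tsc1L-/- replicate 3, where Thrsp was also high, Pnpla3 had 5 counts. With no filter the log2 fold change of PparaKO against control was 2.99 ± 1.0 (SE, edgeR adjusted p = 0.0803), and that of Cpt2L-/-PparaKO against PparaKO −3.95 ± 1.22 (edgeR adjusted p = 0.121). In DKO livers Pnpla3 had 0, 2, 3 and 0 counts, each DKO value in CPM below every control value (10, 5, 6 and 4 counts), though a count of 0 allows up to 3 counts. With no filter DKO against control stood at −2.24 ± 0.92 (unadjusted p = 0.0215, edgeR adjusted p = 0.0872). None of the 10 comparisons passed for Pnpla3 with no filter, and the smallest adjusted p was that of PparaKO against control. DESeq2 did call Pnpla3 in PparaKO against control (3.02, DESeq2 adjusted p = 0.00322) and in Cpt2L-/-PparaKO against PparaKO (−4.02, DESeq2 adjusted p = 0.00237). Without PparaKO replicate 1 it passed the filter only through the PparaKO libraries where it is high, so no test of it is given there.

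With Cpt2 absent, the comparison of Cpt2L-/-PparaKO with Cpt2L-/- livers gave another picture. Acacb, Srebf1 and Gpam fell and Thrsp rose, 4 of 9 members against 13.0% of all genes. Acacb was at 33.5, 91.0, 134 and 111 CPM in Cpt2L-/-PparaKO livers, below every Cpt2L-/- value (log2 fold change −1.55 ± 0.36, 2.94-fold lower, edgeR adjusted p = 0.0213). Gpam was at 102, 48.2, 71.7 and 115 CPM (−1.59 ± 0.27, 3.01-fold lower, edgeR adjusted p = 0.00605), and Srebf1 at 10.3, 15.7, 20.1 and 24.9 CPM against 32.7, 32.0, 30.2 and 47.1 in Cpt2L-/- livers (−1.0 ± 0.26, edgeR adjusted p = 0.0336). None of these overlapped, and 23.0% of all genes did not. Thrsp was at 6.52, 15.3, 13.6 and 15.2 CPM, above the Cpt2L-/- range (1.52 ± 0.27, 2.86-fold, edgeR adjusted p = 0.00652), with replicates 2 to 4 inside the control range and replicate 1 below it. The rest of the pathway was not called, with Acaca at −0.71 ± 0.24 (adjusted p = 0.0723) and Me1 at −1.0 ± 0.37 (adjusted p = 0.0960, both by edgeR).

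Gpam and Thrsp kept their calls with each library left out. Acacb had an edgeR adjusted p of 0.0648, 0.0639 and 0.0679 without Cpt2L-/- replicate 3, Cpt2L-/- replicate 4 and Cpt2L-/-PparaKO replicate 2. Srebf1 had 0.0664, 0.0592, 0.0668 and 0.108 without Cpt2L-/- replicates 1 to 4 and 0.0983 without Cpt2L-/-PparaKO replicate 2. Without Cpt2L-/-PparaKO replicate 1, the library that stood apart, the calls of Acacb (−1.27, edgeR adjusted p = 0.000880), Gpam, Srebf1 (−0.80, adjusted p = 0.0157) and Thrsp held, and Me1 was called too (−1.48, adjusted p = 0.00222). Acaca was called without Cpt2L-/-PparaKO replicate 4 (edgeR adjusted p = 0.0204).

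Cpt2L-/-PparaKO and PparaKO livers differ in Cpt2. By edgeR 0 of 9 members and 0.868% of all genes were called, and 4 members had an unadjusted p under 0.05, Fasn (log2 fold change −3.56 ± 0.78), Thrsp (−4.10 ± 1.0), Acaca (−1.26 ± 0.30) and Mlxipl (−1.25 ± 0.49). DESeq2 called 4 members, Pnpla3 among them. Over all genes this comparison gave 111 calls, 1987 with DESeq2, 3475 in the fit of 4 groups, 4311 in the fit of 24 libraries and 2 to 725 with each library left out, so the low share does not show that the genotypes are alike. Without PparaKO replicate 1 Fasn, Acaca and Thrsp were called, and without Cpt2L-/-PparaKO replicate 4, Fasn and Acaca were. With each library left out, Fasn was −3.93 to −2.66 (edgeR adjusted p up to 0.142) and Thrsp −4.50 to −2.50 (up to 0.146). Fasn was at 13.4, 39.3, 51.6 and 72.5 CPM in Cpt2L-/-PparaKO livers, and Acaca at 18.3, 27.8, 30.1 and 42.0. Both lay below every PparaKO value, as did Thrsp, and 19.0% of all genes had no overlap. The edgeR adjusted p-values of Fasn, Acaca and Thrsp were 0.0527, 0.0574 and 0.0582.

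The interaction of Cpt2 and Ppara loss compares the effect of Cpt2 loss without Ppara with its effect where Ppara is present. Acaca, Acacb and Fasn had negative interactions, 3 of 9 members against 24.0% of all genes. For Acacb it was −2.61 ± 0.47 (log2, edgeR adjusted p = 0.00155). Acacb was higher by 2.03 in Cpt2L-/- than in control livers, and between Cpt2L-/-PparaKO and PparaKO livers the difference was −0.58 ± 0.35 (edgeR adjusted p = 0.288). For Acaca the interaction was −1.22 ± 0.34 (edgeR adjusted p = 0.0170), and both genes kept the call with each library left out. For Fasn it was −3.00 ± 0.89 (edgeR adjusted p = 0.0233), −2.09 without PparaKO replicate 2 (adjusted p = 0.0601) and −1.10 with PparaKO replicates 2 and 3 both left out (adjusted p = 0.248). For Thrsp the interaction was −2.41 ± 1.12 and was not called (edgeR adjusted p = 0.126). It was called without PparaKO replicate 1 or 4 (edgeR adjusted p = 0.0249 and 0.0418), and was −0.80 without PparaKO replicate 2. Gpam had an interaction call with PparaKO replicates 2 and 3 both left out (edgeR adjusted p = 0.0150).

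**Figure D4:**
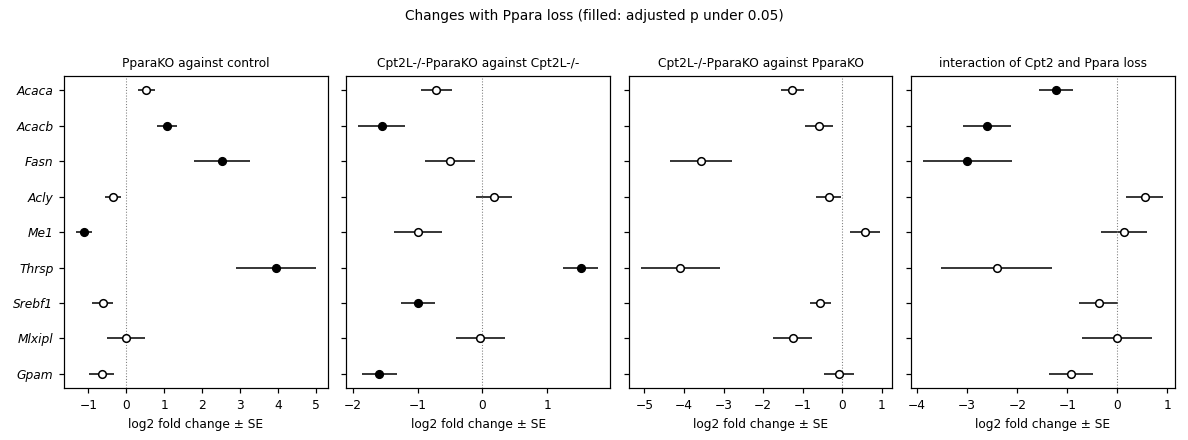
Log2 fold changes with SE (n = 4 per group) of the 9 tested members in the 3 comparisons with Ppara loss and the interaction of Cpt2 and Ppara loss, with filled points where the edgeR adjusted p is under 0.05. Acacb lies at 1.07 without Ppara alone and at −1.55 when Ppara loss is added to Cpt2 loss.

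Among the 9 tested members, Thrsp spanned the widest range across the 24 libraries, from 0.749 CPM in DKO replicate 4 to 632 CPM in PparaKO replicate 2 (844-fold). Fasn (13.4 to 1212 CPM, 90.5-fold) and Srebf1 (10.3 to 331 CPM, 32.2-fold) followed. The other 6 tested members spanned 5.72-fold (Acaca) to 12.0-fold (Mlxipl). As a description over libraries that share group and depth, deviations from the group means in log2 CPM correlated most for Fasn and Thrsp (r = 0.86), Acacb and Acly (0.83), Acaca and Acly (0.80) and Acaca and Acacb (0.76), over 24 libraries. Thrsp and Srebf1 stood at 0.73, and at 0.31 without Tsc1L-/- replicate 3. Gpam ran against Thrsp (−0.50). The genes outside the set whose log2 CPM followed Srebf1 most closely over the 24 libraries were Rgs3 (Pearson r 0.86, Spearman rho 0.66), Cyb5r3 (0.77 and 0.42), Pex26 (0.76 and 0.63), Ssfa2 (0.76 and 0.59) and Car3 (0.75 and 0.65). Those closest to the mean of the 10 members were Ssfa2 (Pearson r 0.85, Spearman rho 0.65), Nod1 (0.84 and 0.79), Sart3 (0.81 and 0.64), Zcchc2 (0.81 and 0.76) and Dusp7 (0.81 and 0.53).

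The surrounding pathway was described by 4 lists, of which 19 genes supply carbon and NADPH, 15 elongate, desaturate or activate fatty acids, 16 make triglyceride and 28 are regulators and partners. All 78 were found in the table, 6 of them under older symbols. Over the 4 lists 44.9% of the genes were called in Cpt2L-/- against control, where 31.0% of all genes were. In these livers 3 of the 19 supply genes were higher and 8 lower than in control (median log2 fold change −0.41, against −0.016 over all genes). Tkfc (listed as Dak), which phosphorylates dihydroxyacetone (−1.75 ± 0.20), the liver pyruvate kinase gene Pklr (−1.58 ± 0.44) and the acetyl-CoA synthetase gene Acss2 (−1.0 ± 0.16) fell. Pgd, of the pentose phosphate route to NADPH, rose (1.56 ± 0.21). All passed edgeR with an adjusted p of at most 0.0144. In the same comparison 5 of the 16 triglyceride genes rose and none fell, a share called close to that over all genes. They include the monoacylglycerol acyltransferase gene Mogat2 (4.20 ± 0.62), Agpat9 (1.48 ± 0.32), an isoenzyme of Gpam in the endoplasmic reticulum, and Lpin3 (1.41 ± 0.24) and Lpin2 (0.89 ± 0.19), which encode phosphatidate phosphatases. Of the 15 elongation and desaturation genes, Elovl6, which extends palmitate (−1.34 ± 0.37), and the enoyl reductase gene Tecr (−1.28 ± 0.14) fell, with 3 higher and 3 lower in all.

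In DKO livers, where 36.4% of all genes were called against control, 39 of the 78 list genes were. Of these, 6 supply genes were higher and 6 lower (median −0.19), with Pgd (1.91 ± 0.21) and the transketolase gene Tkt (1.12 ± 0.14) among the first and the fructokinase gene Khk (−1.54 ± 0.26) among the second. Of the triglyceride genes 5 were higher and 3 lower (median 0.26). Tecr was higher in DKO than in Cpt2L-/- livers (1.21 ± 0.14), and its interaction of Tsc1 and Cpt2 loss was 1.60 ± 0.20 (edgeR adjusted p = 0.000356). It was not called lower in DKO livers against control. Cd1d2 was likewise low in Cpt2L-/- livers but not in control, Tsc1L-/- or DKO livers. Genotype and any difference of colony therefore cannot be told apart for Tecr. In Tsc1L-/- livers 12 of 78 list genes were called (15.4%, against 6.64% of all genes), with 1 supply gene lower, 3 elongation genes lower, 1 triglyceride gene higher and 3 lower, and 2 regulators higher and 2 lower. Among these were the glycerol 3-phosphate dehydrogenase gene Gpd1 (−1.46 ± 0.22) and Ppargc1b, a coactivator of SREBP-1c (1.05 ± 0.23).

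Without Ppara 28 of 77 tested list genes were called (36.4%, against 27.5% of all genes), and 8 of the 15 elongation, desaturation and activation genes were lower than in control and none higher (median −1.0, against 0.017 over all genes). The desaturase gene Fads2 (−2.09 ± 0.36), the acyl-CoA synthetase genes Acss3 (−3.42 ± 0.36) and Acsl1 (−1.31 ± 0.31) and Hsd17b12 of the elongation cycle (−1.35 ± 0.18) were among them. Of the supply genes 2 were higher, among them Pgd (1.66 ± 0.29), and 7 lower. Of the regulators 6 were higher and 1 lower, led by Insig2, which retains SREBP precursors in the endoplasmic reticulum (2.96 ± 0.38), and the clock gene Arntl (2.73 ± 0.61). This count of 7 regulators was 3 without control replicate 1 or 3, 4 without control replicate 2 or 4 or PparaKO replicate 3, 10 without PparaKO replicate 1 and 5 without PparaKO replicates 2 and 3. In Cpt2L-/-PparaKO against Cpt2L-/- livers, where 13.0% of all genes were called, 1 elongation gene was higher and 6 lower, with Acsl1 at −2.74 ± 0.25, and 3 triglyceride genes were lower and none higher. The 7 elongation calls were 4 without Cpt2L-/- replicate 2, 3 or 4, 3 without Cpt2L-/-PparaKO replicate 2 and up to 9 with another library left out, while the calls over all genes ranged from 625 to 2541. Between Cpt2L-/-PparaKO and PparaKO livers the lists held a single call (0.868% of all genes were called), Pparg (1.41 ± 0.23, edgeR adjusted p = 0.0307), and no regulator was called when any of 6 of the 8 libraries was left out (all but PparaKO replicate 1 and Cpt2L-/-PparaKO replicate 4).

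**Figure D5:**
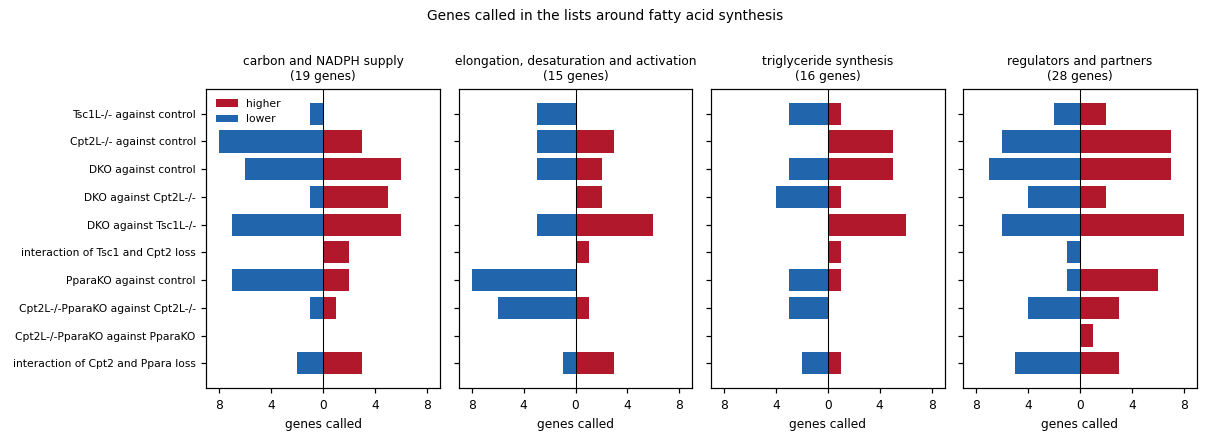
Number of genes called higher (red, right) and lower (blue, left) by edgeR in each of the 4 lists and 10 comparisons, with the number of genes in each list above its panel. Triglyceride synthesis has 5 genes higher and none lower in Cpt2L-/- livers, where 31.0% of all genes were called, and elongation, desaturation and activation has 8 lower and none higher in PparaKO livers, where 27.5% were.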

How the data were processed

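The members and gene lists were chosen with earlier results of these data known. Raw read counts and FPKM values were deposited by the authors. FPKM equaled the count divided by gene length and library total, so FPKM was used only for levels between genes. The deposited gene length was the authors' own column. The submitters' processing notes name STAR 2.5 and HTSeq 0.6.1, beside Bowtie 0.12.2, TopHat, STAR-Fusion, DESeq2 and edgeR, and the builds mm8 and mm9, with no role for each. The coordinates in the table overlapped the GENCODE M21 (GRCm38) gene of the same identifier for 99.8% of genes found there, so they are given as GRCm38.

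Counts were tested in R 4.3.3 with edgeR 4.0.16: filterByExpr (minimum count 10, minimum total 15), TMM, a robust quasi-likelihood fit and Benjamini-Hochberg adjustment over all genes tested, with a threshold of 0.05 on the adjusted p. Control, Tsc1L-/-, Cpt2L-/- and DKO libraries shared a fit of 16. Comparisons with Ppara loss used the 8 libraries concerned, and their interaction the 16 of its 4 groups. SE is the absolute log2 fold change over the root of the F statistic. CPM came from edgeR after TMM over 24 libraries, and correlations used log2 CPM with a prior count of 2. The edgeR script was tested on simulated data with known changes. No pair among 36 within a group agreed within sampling noise. The lists are hand-written from general knowledge. The genes named are the 10 members, Tsc1, Cpt2 and Ppara, at most 4 called genes with the largest change per list and comparison, and the 5 genes most correlated with Srebf1 and with the mean of the members, at a mean of at least 1 CPM. Cyp4a14 and Cd1d2 are outside the rule, and 1 gene that the rule names is not reported here. Alternatives were RLE size factors, no filter, DESeq2 1.42.0, all 24 libraries in a fit, fits of the groups compared alone or of the 4 groups of the Cpt2 and Ppara design, the replicate number as a block and each library left out. Leaving out PparaKO replicates 2 and 3 together was added after the data were seen. Figures were drawn with matplotlib 3.10.9.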

Additional observations from a re-analysis of the deposited data

Results flagged for a closer look

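Among 60 combinations of a member and a group of 4 libraries, 4 had a library whose gap to its nearest neighbor, on log2 CPM, exceeded Dixon's critical ratio of 0.829 of the group's range. On CPM without the log there were 7. Chance gives about 1 such group in 20. Thrsp in Tsc1L-/- replicate 3 was at 553 CPM, with the other libraries at 7.44 to 14.8 CPM. Thrsp in Cpt2L-/-PparaKO replicate 1 was at 6.52 CPM, with the others at 13.6 to 15.3 CPM. Acaca in PparaKO replicate 4 was at 105 CPM, with the others at 55.0 to 60.2 CPM. Me1 in PparaKO replicate 2 was at 39.8 CPM, with the others at 60.0 to 62.9 CPM. On CPM the low Thrsp value did not pass, and Acaca (103 CPM), Fasn (259) and Srebf1 (331) in Tsc1L-/- replicate 3 and Srebf1 in Cpt2L-/- replicate 4 (47.1) did. The pair of high Fasn and Thrsp values in PparaKO replicates 2 and 3 does not reach this ratio, since neither library is alone.

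The interaction term of edgeR for Cpt2 and Ppara loss passed for 3 members. It was −2.61 ± 0.47 (log2) for Acacb (adjusted p = 0.00155), −1.22 ± 0.34 for Acaca (adjusted p = 0.0170) and −3.00 ± 0.89 for Fasn (adjusted p = 0.0233). The Fasn call was lost without PparaKO replicate 2 (edgeR adjusted p = 0.0601). Among these groups control livers alone had high Cd1d2, so genotype and any difference of colony cannot be told apart in this term. Acacb in Cpt2L-/- livers was above control in 4 of 4 libraries, while in Cpt2L-/-PparaKO livers it overlapped the PparaKO range (−0.58, edgeR adjusted p = 0.288).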

How the results depend on the processing

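Members called changed in number as follows, where alternatives within 1.5 times of the count reported are left out unless given. In Tsc1L-/- against control the count of 1 became 2 with DESeq2 and 0 with the 2 groups alone, and 1 to 2 with each library left out. In DKO against control the 4 calls became 1 with all 24 libraries in the fit, 3 with no filter, 5 with DESeq2, 6 with the 2 groups alone, and 2 to 4 with each library left out. With each library left out, the 3 calls in Cpt2L-/- against control became 3 to 4, the 6 in DKO against Tsc1L-/- 5 to 8 and the 3 of the interaction of Cpt2 and Ppara loss 2 to 4. In DKO against Cpt2L-/- the 0 calls became 1 with the 2 groups alone, and 0 to 1 with each library left out. In PparaKO against control the 4 calls became 2 with no filter, 2 without PparaKO replicates 2 and 3, and 2 to 5 with each library left out. In Cpt2L-/-PparaKO against Cpt2L-/- the 4 calls became 2 to 5 with each library left out. In Cpt2L-/-PparaKO against PparaKO the 0 calls became 1 with no filter, 4 with DESeq2, 3 with all 24 libraries, 2 with the replicate block, 3 with the 4 groups of the Cpt2 and Ppara design, and 0 to 4 with each library left out.

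The sign turned for uncalled members. Mlxipl in DKO against Cpt2L-/- was −0.013 with RLE, −0.013 with DESeq2, −0.014 with all 24 libraries and −0.0068 with the 2 groups alone. Mlxipl in PparaKO against control was 0.00025 with all 24 libraries. For the interaction of Cpt2 and Ppara loss Mlxipl was 0.038 with the replicate block, and without PparaKO replicates 2 and 3 it was 0.91, Me1 −0.021 and Thrsp 0.98. With each library left out, the ranges in Tsc1L-/- against control were −0.71 to 0.60 for Fasn, −0.23 to 0.35 for Acly, −0.40 to 3.79 for Thrsp, −0.22 to 1.79 for Srebf1 and −0.063 to 0.92 for Mlxipl. They were −0.11 to 0.13 for Acaca and −0.34 to 0.10 for Srebf1 in Cpt2L-/- against control, −0.16 to 0.045 for Acaca in DKO against control, and −0.12 to 0.018 for Acaca and −0.17 to 0.17 for Mlxipl in DKO against Cpt2L-/-. For the interaction of Tsc1 and Cpt2 loss they were −1.08 to 0.25 for Fasn, −0.16 to 0.42 for Acly and −0.94 to 0.070 for Mlxipl. They were −0.39 to 0.40 for Mlxipl in PparaKO against control, −0.085 to 0.41 for Acly and −0.52 to 0.17 for Mlxipl in Cpt2L-/-PparaKO against Cpt2L-/-, and −0.30 to 0.23 for Gpam in Cpt2L-/-PparaKO against PparaKO. For the interaction of Cpt2 and Ppara loss they were −0.37 to 0.39 for Me1 and −0.52 to 0.37 for Mlxipl. The causes were not tested.

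Over all genes, Tsc1L-/- against control gave 906 calls, and 400 with all 24 libraries, 466 with the 2 groups alone and 583 without control replicate 3. Cpt2L-/- against control gave 4235 and 2798 with all 24 libraries. DKO against Cpt2L-/- gave 2494, and 1065 with all 24 libraries and 1428 to 2498 with each library left out. The interaction of Tsc1 and Cpt2 loss gave 324, and 745 with DESeq2, 65 with all 24 libraries and 150 to 403 with each left out. PparaKO against control gave 3559 and 2321 without control replicate 4. Cpt2L-/-PparaKO against Cpt2L-/- gave 1679, and 2759 with DESeq2, 3239 with all 24 libraries and 625 to 2541 with each left out. Cpt2L-/-PparaKO against PparaKO gave 111, and 368 with no filter, 1987 with DESeq2, 4311 with all 24 libraries, 916 with the replicate block, 3475 with the 4 groups, 0 without PparaKO replicates 2 and 3, and 2 to 725 with each left out.

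Of the list counts in the report, those of supply, elongation, triglyceride and regulator genes in Tsc1L-/- against control (1, 3, 4 and 4) became 0, 1, 2 and 2 with all 24 libraries, and 1 to 3, 1 to 4, 2 to 4 and 1 to 4 with each library left out. Supply was 2 without control replicate 1 and 3 without Tsc1L-/- replicate 3, elongation was 1 without control replicate 3, triglyceride was 2 without control replicate 1 or 2 or Tsc1L-/- replicate 2 or 4, and regulators were 1 without control replicate 3 and 2 without control replicate 2 or 4 or Tsc1L-/- replicate 4. With all 24 libraries supply and elongation went from 11 and 6 to 7 and 3 in Cpt2L-/- against control, and supply from 12 to 7 in DKO against control. The 7 regulators in PparaKO against control became 12 with DESeq2, and the 3 triglyceride genes in Cpt2L-/-PparaKO against Cpt2L-/- became 5 with DESeq2 and with all 24 libraries. The 4 lists in Cpt2L-/-PparaKO against PparaKO (0, 0, 0 and 1) became 3, 3, 2 and 6 with DESeq2 and 5, 5, 3 and 9 with all 24 libraries. DESeq2 gave no adjusted p for Thrsp in the 6 comparisons of control, Tsc1L-/-, Cpt2L-/- and DKO livers, and those values are left out. Libraries of the same replicate number did not deviate together (r from −0.30 to 0.21 over 24 pairs in the fit of Tsc1 and Cpt2 groups, and −0.12 to 0.26 over 24 pairs in that of Cpt2 and Ppara groups), so the numbers do not pair the mice. With the replicate block, members called went from 3 to 4 in Cpt2L-/- against control, from 4 to 3 in PparaKO against control and from 4 to 6 in Cpt2L-/-PparaKO against Cpt2L-/-. Among the members, the filter on low counts left Pnpla3 out of the main test. It adds 1 to the counts with DESeq2 and without PparaKO replicate 1 in the comparisons of PparaKO with control and with Cpt2L-/-PparaKO, and without that library it passed the filter only where it is high, so there the counts are 4 and 3 without it.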

Other observations

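Insig1, which SREBP is known to induce, was at 176 ± 121 CPM (SD, n = 4) in control livers and fell in Cpt2L-/- (−1.40 ± 0.47, adjusted p = 0.0363) and DKO livers (−1.39 ± 0.47, adjusted p = 0.0332, both by edgeR). Insig2, the isoform known to be high in fasted liver, rose in the same comparisons (1.97 ± 0.32 and 1.62 ± 0.32, edgeR adjusted p = 0.000261 and 0.00102). It was at 250 ± 78.8 CPM in control livers, 1002 ± 226 in Cpt2L-/-, 773 ± 166 in DKO and 1954 ± 964 in PparaKO livers. Nr0b2, which encodes the repressor SHP, was at 21.6 ± 12.7 CPM in control livers, 3.39 ± 3.98 in Cpt2L-/- and 0.64 ± 0.82 in DKO livers, and passed in both (edgeR adjusted p = 0.0344 and 0.00269).

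Pnpla2, the gene of the triglyceride lipase ATGL, rose in Cpt2L-/- (1.47 ± 0.24) and DKO livers (1.28 ± 0.24), was lower in Cpt2L-/-PparaKO than in Cpt2L-/- livers (−1.40 ± 0.20), and had an interaction of Cpt2 and Ppara loss of −2.02 ± 0.48 (edgeR adjusted p = 0.00741). Acacb had the same signs in these 4 tests. Trib3 was at 241 CPM in a single Tsc1L-/- library and at 16.9 CPM in the lowest of that group.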
